A study of Mus musculus with 2 samples.

Results

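Retnla and Retnlg are the resistin-like genes described here, 2 of the 27998 genes counted. They were taken by gene symbol and followed across classes of lung cells. Retnla encodes resistin-like molecule alpha, a small secreted cysteine-rich protein also known as "found in inflammatory zone". Retnlg encodes resistin-like molecule gamma, a related secreted protein. The data came from single-cell RNA sequencing of whole lung from male C57Bl/6J mice aged 3 months. The mice received 100 µg of particles into the trachea, either titanium dioxide or crocidolite asbestos, and were killed 14 days later. There was 1 library labelled control and 1 labelled fibrosis, each from 1 mouse, and the labels do not say which particle each mouse received. The pair was selected on its UMIs (RNA molecules counted) per cell class in these same libraries, so those levels are given as a description with no test.

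In mice the resistin family has 4 members: resistin itself, which is made by fat cells, and 3 resistin-like genes. Retnla is a classical target of the type 2 cytokines IL-4 and IL-13, which act through their shared receptor chain Il4ra and the transcription factor Stat6. It is known as a marker of alternatively activated macrophages and is also made by airway epithelium in allergic and parasitic inflammation. Retnlg is known from bone marrow and neutrophils.

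In the GENCODE annotation of build GRCm38, the 3 resistin-like genes lay in a row on the plus strand of chromosome 16. Retnla (ENSMUSG00000061100) ran from 48842551 to 48844461 and Retnlg (ENSMUSG00000022651) from 48872621 to 48874496, each with 4 exons. Retnla started 23659 bases after the end of Retnlb, and Retnlg started 28160 bases after the end of Retnla. The DNA just upstream of each member is shown because the genes are neighbours with related sequence and different sites of expression. Both windows are from RefSeq (GRCm38.p6), read 5′ to 3′ on the plus strand, and stop before the first annotated transcript start. Capitals mark a match to TTC and GAA set apart by 4 bases of any kind, the spacing of elements that Stat6 binds.
Retnla, chr16:48842359-48842550: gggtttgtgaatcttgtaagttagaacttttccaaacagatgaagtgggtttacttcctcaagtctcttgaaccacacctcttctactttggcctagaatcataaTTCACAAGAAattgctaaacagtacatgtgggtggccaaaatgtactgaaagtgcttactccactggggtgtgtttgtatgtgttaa
Retnlg, chr16:48872358-48872607: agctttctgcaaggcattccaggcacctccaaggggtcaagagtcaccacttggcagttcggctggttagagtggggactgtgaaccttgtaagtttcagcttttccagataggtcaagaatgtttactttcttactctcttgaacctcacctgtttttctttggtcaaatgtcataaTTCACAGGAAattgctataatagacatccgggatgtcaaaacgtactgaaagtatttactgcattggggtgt
The capitals lay 145 to 136 bases upstream of the RefSeq start in Retnla and 72 to 63 bases upstream in Retnlg. On either strand, that pattern occurred in 2284 of 32851 RefSeq promoter windows of 300 bases (6.95%). The RefSeq start of Retnla, 48842609, is 58 bases downstream of the GENCODE start. A TATAAA box stood 30 to 25 bases upstream of that RefSeq start, past the end of the sequence shown, and 13.6% of all promoter windows held one on either strand. None was found in the Retnlg window. The pattern TTGCNNAA, of the type that C/EBP factors bind, followed the capitals in Retnla at 134 to 127 bases upstream. In Retnlg it occurred on the minus strand at 246 to 239 bases upstream, and 10.8% of all windows held it. The full windows of 300 bases, which run past the start, were identical at 175 of 226 aligned bases (77.4%). These matches describe letters and are not evidence of binding. The transcripts themselves, 599 and 593 bases long, were identical at 84.5% of 587 aligned bases, with a longest shared run of 49 bases. Reads that fall in such stretches can be hard to assign to either gene.

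The control library held 8280 cells with 36632591 unique molecular identifiers (UMIs), the counts of single captured RNA molecules. The fibrosis library held 7173 cells with 38090308 UMIs. Median totals per cell were 3783.5 and 4292 UMIs, and 89 cell barcodes occurred in both libraries. Cells were assigned to classes by marker genes detected in each cell, the 2 members not among them, which classified 6184 control and 4729 fibrosis cells. The 17 classes with at least 20 cells in each library were compared, and "-like" marks that the names are rebuilt from transcripts. Levels are a class's summed UMIs per 1000000 of its total (CPM), with exact Poisson 95% intervals. Ratios between sums carry exact intervals as well. All of them cover counting error only. Because each group is 1 library, the spread between mice is not known and no p-value is given.

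Retnla was 48.7-fold more abundant in the fibrosis library as a whole. It gave 2208 UMIs (60.3 CPM) in the control library, with at least 1 UMI in 283 cells (3.42%). The fibrosis library had 111856 UMIs (2937 CPM), with at least 1 in 3860 cells (53.8%). The log2 ratio was 5.61 (5.55 to 5.67). The transcripts sat in few cells: the 100 highest cells held 91.7% of the control UMIs and 70.6% of the fibrosis UMIs. Retnlg went the other way, from 47482 UMIs (1296 CPM) in 2083 control cells to 7358 UMIs (193 CPM) in 794 fibrosis cells, a log2 ratio of -2.75 (-2.78 to -2.71). The other family members were scarce. Retn had 189 and 54 UMIs, and Retnlb, the resistin-like gene known from gut epithelium, had 17 and 21.

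Among classes called by markers, Retnla was highest in club-like cells, the secretory cells of the airway lining, in both libraries. By clusters this held for fibrosis, whereas in the control library interstitial macrophage clusters (1580.2 CPM) and ciliated clusters (274 CPM) stood above club clusters (261 CPM). The 41 control cells held 289 UMIs, or 562 CPM (499 to 631). The 57 fibrosis cells held 14733 UMIs, or 21465 CPM (21120.0 to 21815), so that more than 2 in every 100 of their transcripts were Retnla. The log2 ratio was 5.26 (5.09 to 5.43), and 6.88 without the 5 highest cells of each library. Single control cells ranged from 0 to 164 UMIs with a median of 0, and 18 of 41 had at least 1. Single fibrosis cells reached 1715 UMIs with a median of 83, and 53 of 57 had at least 1. In the control library the 5 highest cells carried 84.4% of the class's Retnla, against 45.8% in the fibrosis library. In club-like cells 6.62% of the 3249 genes with at least 20 UMIs were higher by 2-fold or more in the fibrosis library and 2.15% were that much lower. Retnla had the fourth highest ratio of these genes, a position that the choice of this gene makes uninformative.

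AT2-like cells, the surfactant-making cells of the alveoli, ranked behind club-like and ciliated-like cells by level in the fibrosis library and held the most Retnla UMIs of any compared class there. The 1003 control cells had 141 UMIs, or 23.1 CPM (19.4 to 27.2), and no cell exceeded 18. The 1678 fibrosis cells had 32876 UMIs, or 3233 CPM (3198 to 3268), which was 29.4% of all Retnla in that library. The log2 ratio of 7.13 (6.89 to 7.38) was the highest of 11528 genes in this class, where 3.44% of genes were higher and 1.27% lower by 2-fold or more. As in club-like cells, the choice of this gene makes that position uninformative. The median fibrosis cell had 1 UMI, the 90th percentile was 17 and the highest cell had 3288. Most AT2-like cells of the fibrosis library were therefore low, and a minority was very high.

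Ciliated-like cells, which carry the beating cilia of the airway, stood second at 5669 CPM (5482 to 5861; 3480 UMIs in 75 cells) in the fibrosis library. Their control level was 20.5 CPM (10.3 to 36.8; 11 UMIs in 82 cells). The log2 ratio was 8.11 (7.27 to 9.11), in a class where 3.85% of 7058 genes were higher and 2.76% lower by 2-fold or more. The 5 highest cells held 95.2% of the fibrosis UMIs, and the median cell had 1. Most of it came from cells with club markers. The 12 fibrosis cells with 5 or more club markers had 15542 CPM and 3374 UMIs. The other 63 had 267 CPM (219 to 323). The 12 cells had a median total of 16220.0 UMIs and Scgb1a1, the secretoglobin of club cells, at 241994 CPM. The other 63 had a median total of 5683 UMIs. Whether those 12 droplets held more than 1 cell was not tested.

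In interstitial macrophage-like cells, the macrophages of the lung tissue rather than the airspace, Retnla was at 225 CPM (181 to 277; 89 UMIs) in the 124 control cells. In the 244 fibrosis cells it was at 2014 CPM (1918 to 2114; 1652 UMIs). The log2 ratio of 3.16 (2.85 to 3.49) depended on how the cells were assigned, and 1 control cell held 88 of the 89 UMIs. When whole Leiden clusters of cells were used in place of marker calls on single cells, the control level was 1580 CPM in 176 cells and the fibrosis level 2233 CPM in 375 cells. The log2 ratio was then 0.50 (0.40 to 0.60). Here 5.16% of 5838 genes were higher and 3.31% lower by 2-fold or more.

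Alveolar macrophage-like cells, the resident phagocytes of the airspace, had 3.52 CPM in the control mouse (10 UMIs in 550 cells). In the mouse with fibrosis they had 192 CPM (179 to 207; 733 UMIs in 665 cells). The highest control cell had 1 UMI and the highest fibrosis cell 50. The log2 ratio was 5.77 (4.89 to 6.84), and 2.83% of 9777 genes in the class were higher and 1.69% lower by 2-fold or more. By clusters in place of single-cell calls the fibrosis level was 677 CPM and the log2 ratio 7.13. Classical monocyte-like cells, the blood precursors of lung macrophages, went from 3.72 to 244 CPM, with 31 UMIs in 1616 cells and 408 in 405. Their log2 ratio was 6.04 (5.51 to 6.61), where 4.43% of 9706 genes were higher and 2.5% lower by 2-fold or more.

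B cell-like cells served as the background class, since B cells are not known to make Retnla. Droplet libraries carry free RNA from broken cells into every droplet, and the background class shows how much. It had 11 UMIs in 826 control cells, or 6.04 CPM (3.01 to 10.8). It had 171 UMIs in 337 fibrosis cells, or 181 CPM (155 to 211), a log2 ratio of 4.91 (4.03 to 5.94). No single B cell-like cell had more than 1 UMI among controls or more than 4 in fibrosis. T cell-like cells stood at 3.67 and 151 CPM and NK cell-like cells at 4.66 and 171 CPM. Retnla was thus higher in the fibrosis library in all 17 classes, classes not known to make it included, each by over 2-fold at the lower end of its interval. Type 2 and plasmacytoid dendritic-like cells had no control UMI. With 3 counts in place of 0 they were 6.24-fold and 5.24-fold higher, and the lower limits of their log2 ratios were 2.27 and 1.90. In B cell-like cells 3.89% of 7602 genes were higher and 2.28% lower by 2-fold or more, and in T cell-like cells 3.54% and 2.24% of 6867.

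**Figure D1:**
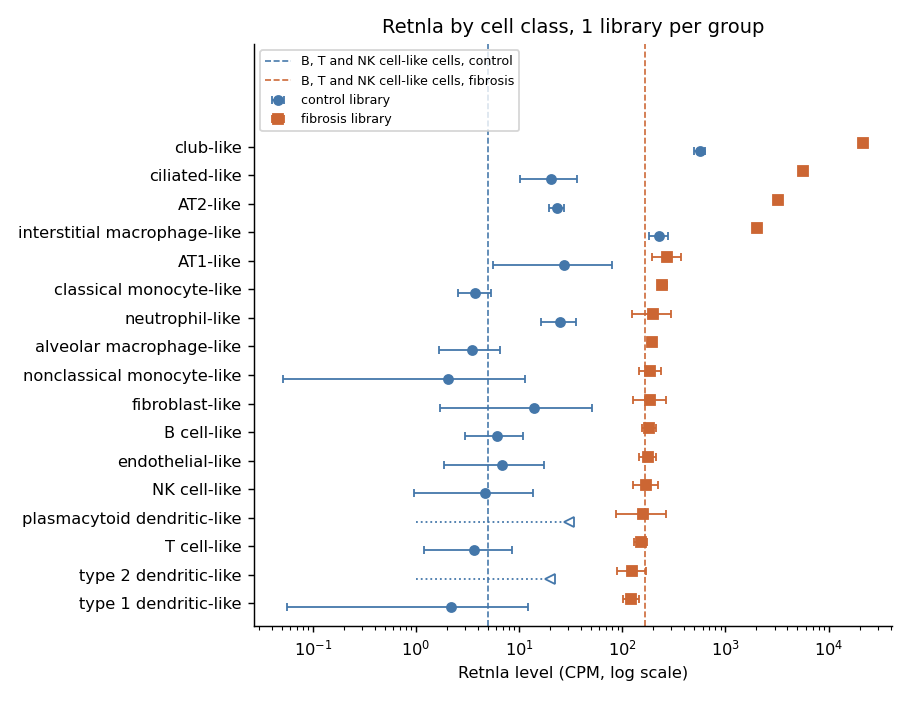
Retnla level in CPM (log axis) in each of the 17 classes, control library in blue and fibrosis library in orange. Bars are exact Poisson 95% intervals, open triangles mark the limit that a count of 0 allows (3 counts), and dashed lines give B, T and NK cell-like cells summed. Orange points of 4 classes, club-like to interstitial macrophage-like, sit far to the right of the dashed line at 165.5 CPM, and the other 13 lie close to it.

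Set against B cell-like cells of the same library, 4 fibrosis classes stood far above background. Club-like cells were 118-fold higher (102 to 139), ciliated-like cells 31.3-fold (26.8 to 36.7), AT2-like cells 17.8-fold (15.3 to 20.8) and interstitial macrophage-like cells 11.1-fold (9.48 to 13.1). Each of these differed from the next in the order by more than counting error. Below them no neighbouring classes did. AT1-like cells, the flat cells of gas exchange, were 1.49-fold above B cell-like cells (1.03 to 2.11) and classical monocyte-like cells 1.35-fold (1.12 to 1.62). Alveolar macrophage-like cells were at 1.06-fold (0.897 to 1.26). Neutrophil-like, nonclassical monocyte-like, fibroblast-like, endothelial-like, NK, T and plasmacytoid dendritic-like cells lay between 0.831-fold and 1.09-fold. Type 1 and type 2 dendritic-like cells were at 0.675-fold (0.528 to 0.859) and 0.686-fold. In the marker-called classes from alveolar macrophage-like to type 2 dendritic-like cells Retnla did not exceed background by the counts, and their UMIs are not read as expression. By clusters, alveolar macrophage-like cells were at 677 CPM and B cell-like cells at 197 CPM in the fibrosis library. Among control cells, club-like cells were 93.1-fold (51.3 to 189) and interstitial macrophage-like cells 37.3-fold (19.9 to 77.5) above B cell-like cells. Single cells carried much of both. Of the 289 club-like UMIs, 164 were in 1 cell with a total of 45649 UMIs, which clustering placed in a ciliated cluster. Another cell held 88 of the 89 interstitial macrophage-like UMIs, and the other 123 cells were at 2.55 CPM, below the B cell-like 6.04 CPM. Neutrophil-like, AT2-like and ciliated-like cells were 4.09-fold, 3.83-fold and 3.40-fold above, on 27, 141 and 11 UMIs, and 16 of the 27 were in 1 neutrophil-like cell. Below the first 2 control classes, neighbours in the order did not differ beyond counting error.

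The share of cells with a UMI was compared after each cell had been thinned to 1000 UMIs, since depth differs between classes; no cell had fewer. Unthinned, 62.8% of AT2-like and 36.8% of B cell-like fibrosis cells had a Retnla UMI, at median totals of 5480.5 and 2579 UMIs. After thinning, the share was 75.4% in club-like, 27.05% in interstitial macrophage-like and 26.4% in AT2-like cells. It was 21.3% in ciliated-like and 16.1% in alveolar macrophage-like cells, against 16.9% in B cell-like, 14.8% in T cell-like and 20.4% in NK cell-like cells. The share in control cells was 17.1% for club-like, 2.19% for AT2-like and 0.363% for B cell-like cells. By this share club-like (62.2% to 85.9%), AT2-like (24.3% to 28.6%) and interstitial macrophage-like cells (21.6% to 33.1%) lay above B cell-like cells (13.1% to 21.4%), and ciliated-like cells (12.7% to 32.3%) overlapped them.

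Cells with many Retnla UMIs were also counted. Of the fibrosis cells, no B, T or NK cell-like cell had 5 or more Retnla UMIs among 1000, nor did any cell of 8 further classes. For the 337 B cell-like cells, a count of 0 allows a share of up to 0.890%. Such high cells made up 36 of 57 club-like cells (63.2%), 136 of 1678 AT2-like cells (8.10%) and 17 of 244 interstitial macrophage-like cells (6.97%). There were 4 among 75 ciliated-like cells, 3 among 405 classical monocyte-like cells and 2 among 665 alveolar macrophage-like cells. The 136 AT2-like cells held 90.3% of their class's Retnla. Without them the class had 349 CPM (337 to 361). The 17 interstitial macrophage-like cells held 84.9%, and the rest had 326 CPM (287 to 370). Without their 2 and 3 high cells, alveolar macrophage-like cells had 173 CPM and classical monocyte-like cells 152 CPM, at or below the B cell-like level. The line at 5 is a range within a continuous spread. Of AT2-like cells, 37 had 3 or 4 UMIs among 1000 and 38 had 5 to 9. Control high cells were 1 interstitial macrophage-like cell, 1 neutrophil-like cell and 8 of 1842 unclassified cells.

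**Figure D2:**
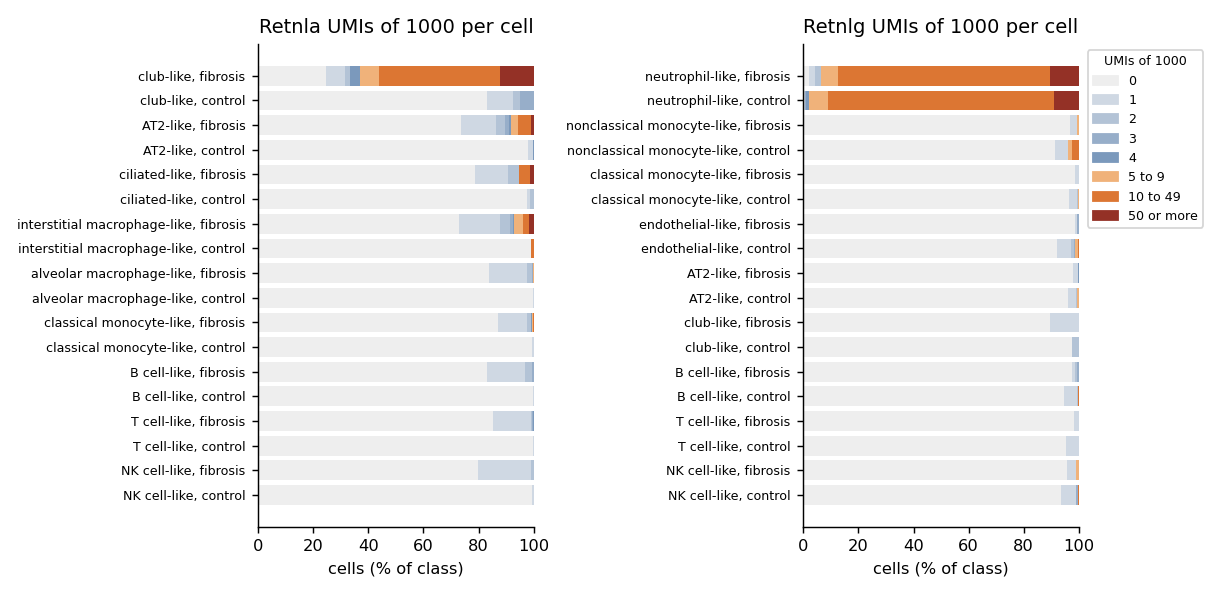
Share of cells (percent of the class) by the number of Retnla (left) or Retnlg (right) UMIs among 1000 UMIs drawn from each cell, for selected classes in each library. In the fibrosis library club-like bars are mostly orange or red (5 or more), AT2-like and interstitial macrophage-like bars have a thin orange end, and B, T and NK cell-like bars end at blue.

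Free RNA was traced with Scgb1a1, which club cells make in large amounts and which was detected in every class. RNA set free by a single source keeps its genes in 1 ratio wherever it lands. Club-like fibrosis cells had 42.5 Retnla UMIs per 1000 Scgb1a1 UMIs (41.8 to 43.2). B cell-like cells had 42.7 (36.4 to 49.8), T cell-like cells 39.8 (33.9 to 46.4) and NK cell-like cells 40.9 (30.5 to 53.8). These lymphocyte values lay within counting error of the club-like value, as did those of neutrophil-like, nonclassical monocyte-like, type 2 dendritic-like, plasmacytoid dendritic-like and endothelial-like cells (41.7 to 51.9). Other classes near the background level lay above it, with type 1 dendritic-like cells at 54.9 (45.2 to 66.2), fibroblast-like cells at 67.4 (lower limit 45.3) and AT1-like cells at 93.5 (65.8 to 129). AT2-like cells had 583 (575 to 591) and interstitial macrophage-like cells 513 (483 to 544), more than 10 times the club-like value. Alveolar macrophage-like cells had 64.5 (59.8 to 69.5) and classical monocyte-like cells 81.7 (73.7 to 90.4). Club-like control cells had 0.992 (0.881 to 1.11) and B cell-like cells 0.792 (0.395 to 1.42), while AT2-like cells had 4.18 and interstitial macrophage-like cells 42.0. Scgb1a1 was at 33927 CPM in the whole control library and 40207 CPM in the whole fibrosis library. By class it was at 7622 and 4248 CPM in B cell-like, 566740 and 505381 CPM in club-like, 83218 and 89765 CPM in ciliated-like and 5518 and 5543 CPM in AT2-like cells.

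**Figure D3:**
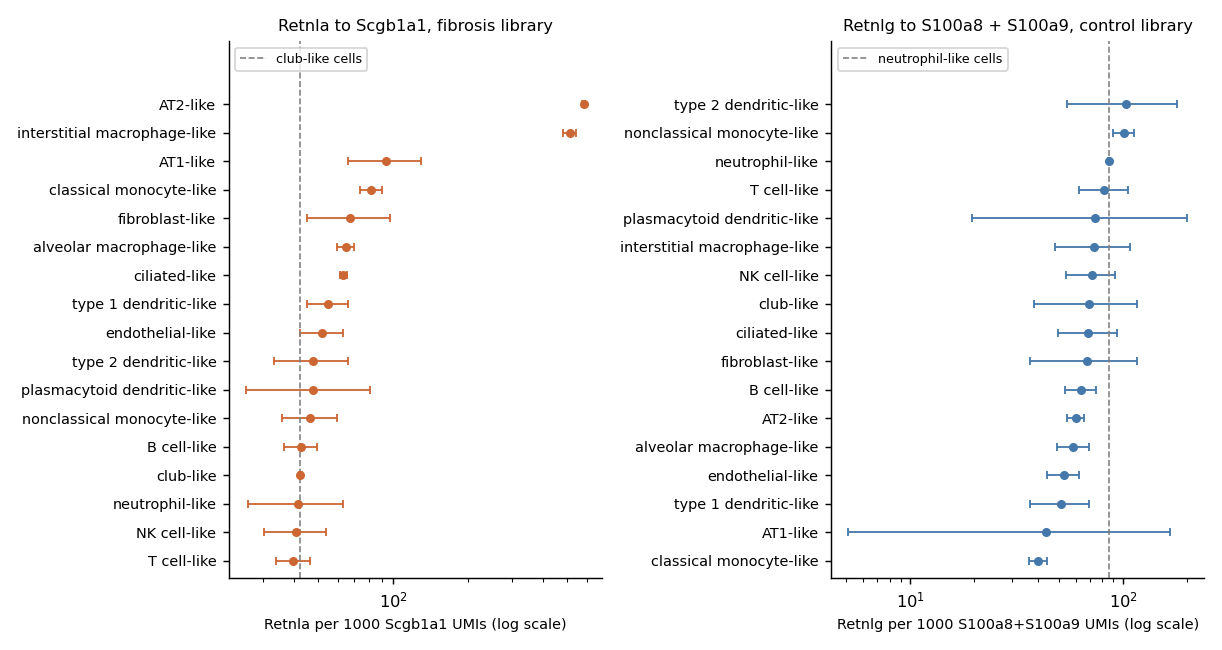
Left, Retnla UMIs per 1000 Scgb1a1 UMIs by class in the fibrosis library. Right, Retnlg UMIs per 1000 UMIs of S100a8 and S100a9 by class in the control library (both log axes, exact 95% intervals, dashed line at the presumed source class). On the left B, T and NK cell-like cells lie at the club-like line at 42.5 and AT2-like and interstitial macrophage-like cells stand apart at 583 and 513. On the right the values run from 40.0 in classical monocyte-like cells to 103 in type 2 dendritic-like cells, with neutrophil-like cells at 86.0.

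The high AT2-like cells were examined for what else set them apart, in CPM that leave out the 2 members. Fxyd4, Chia1 and Slc26a4 had the 3 highest ratios of 949 genes with at least 100 UMIs in the high cells and a UMI in 50% of them. Both limits were set on the high cells alone, so genes scarce in those cells could not enter. The ranking is therefore a description only. The genes named were chosen after their values had been seen. Fxyd4, a regulator of the sodium pump, was at 373 CPM in the 136 high cells and 6.26 CPM in the other 1542, with UMIs in 53.7% and 2.79% of cells. Chia1, the acidic chitinase, was at 1830.3 and 182 CPM. Slc26a4, the anion exchanger pendrin, was at 484 and 55.9 CPM. AT2 genes were close between the 2 sets: Sftpc, the surfactant protein C gene, was at 156672 and 175223 CPM and Lamp3 at 1249 and 1381 CPM. Il33, an alarmin that starts type 2 responses, was at 944 and 435 CPM. The receptor gene Il13ra1 was at 35.9 and 14.5 CPM and Il4ra at 33.9 and 20.4 CPM, while Stat6 was at 33.0 and 28.7 CPM.

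Club transcripts were also higher in the high AT2-like cells taken as a sum, with Scgb1a1 at 23187 and 3566 CPM and Cyp2f2, a club cell cytochrome, at 245 and 43.1 CPM. That sum was driven by some of the cells: the median was 18 Scgb1a1 UMIs in high and 15 in other cells, at median totals of 6871.5 and 5390.5 UMIs. Of the 136, 107 (78.7%) had no more Scgb1a1 than the 90th percentile of the other AT2-like cells, 4731 CPM. Those 107 still had Retnla at 26199 CPM, Fxyd4 at 387 CPM, Chia1 at 1495 CPM, Slc26a4 at 487 CPM and Sftpc at 162612 CPM. The 69 cells at or below the median of the others had Retnla at 28668 CPM. Clustering without the members placed 125 of the 136 in AT2 clusters and 2 in club clusters, one of them the cell with 3288 UMIs.

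In club-like cells the 36 high cells were set against the other 21, again with genes chosen after their values had been seen. Clca1, a mucus-linked gene of goblet cells, was at 2452 and 269 CPM, and the mucin genes Muc5b and Muc5ac were at 836 and 138 CPM and at 124 and 8.14 CPM. Agr2, a folding factor for mucins, was at 157 and 8.14 CPM and Tff2, a trefoil peptide of mucus, at 1212 and 191 CPM. Scgb3a1, another secretoglobin, was at 18931 and 5692 CPM. Scgb1a1 was close, at 514049 and 520784 CPM, and Cyp2f2 was lower in high cells, at 3340 and 6470 CPM. The secretoglobin Scgb3a2, a club marker, was higher in high cells, at 15465 and 8520.2 CPM, as was Reg3g, an antibacterial lectin, at 1205 and 484 CPM. Club genes thus went in both directions.

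**Figure D4:**
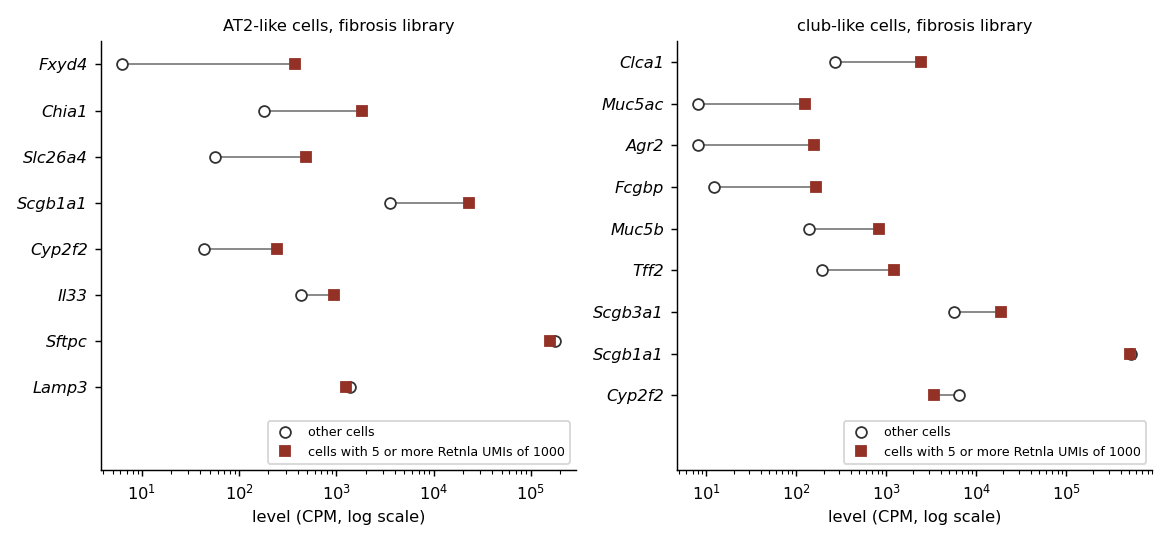
Levels in CPM (log axis, the 2 members left out of the totals) of genes in fibrosis cells with 5 or more Retnla UMIs among 1000 (red squares) and in other cells of the class (open circles), for AT2-like (left) and club-like cells (right). Genes were picked after their values were seen. Fxyd4, Chia1 and Slc26a4 are far apart on the left while Sftpc and Lamp3 overlap, and the mucus genes are apart on the right while Scgb1a1 overlaps.

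Retnla in the macrophage clusters sat in small sets of cells in both libraries. In the clusters named interstitial macrophage-like, 8 control cells held 1038 of 1040 Retnla UMIs, from 23 to 446 per cell with a median of 90. Of the 8, 1 was called interstitial macrophage-like by its own markers. The other 168 cells had 3.22 CPM. The fibrosis library had 36 such cells with 2702 UMIs, from 10 to 356 per cell with a median of 41, 16 of them called so by markers, and the other 339 had 370 CPM. The sets had Retnla at 27460.3 CPM in the control and 18439.5 CPM in the fibrosis library. Since the cells were picked by their own Retnla count, these levels do not compare the libraries. C1qa, a complement gene of these macrophages, was lower in high than in other cells in both libraries, at 1772 and 6417 CPM in control and at 2470.4 and 4721 CPM in fibrosis. H2-Ab1, a class II antigen gene, was higher, at 9603 and 6870.5 CPM and at 8824 and 7141 CPM. Folr2, a folate receptor of tissue macrophages, was at 370.4 and 277 CPM and at 253 and 137 CPM. Mrc1, the mannose receptor, was lower in high control cells, at 265 and 556 CPM, and higher in high fibrosis cells, at 751 and 531 CPM. The scavenger receptor gene Cd163 was at 26.5 and 199.9 CPM in control and at 171 and 100.4 CPM in fibrosis. Cd209a, known from dendritic cells, was at 132 and 25.8 CPM in control and at 6.82 and 15.7 CPM in fibrosis. No intervals are given for these sums over 8 and 36 high cells. Cd163 in the high control cells and Cd209a in the high cells of both libraries rested on few UMIs, so no direction is read from them. The levels of C1qa, Folr2 and Mrc1 shared no direction, and the cell type of the 8 control cells is not settled by these genes. Scgb1a1 was at 4153 CPM in high and 4869.9 CPM in other control cells, and at 5794 and 3393 CPM in fibrosis cells. These genes were chosen after their values had been seen. Among cells called by markers in the fibrosis library, the 17 high cells had Ccl24, a chemokine for eosinophils, at 321 against 26.1 CPM, and the lectin Clec10a at 264 against 36.6 CPM. These levels rested on 17 Ccl24 UMIs in 4 cells and 14 Clec10a UMIs in 7 cells. The club genes Scgb3a2 (15 UMIs in 4 cells) and Scgb1a1 were higher too, at 283 against 26.1 CPM and at 6736 against 3743 CPM. Cyp2f2 had 0 UMIs in the high cells and 20 in the others. Mrc1 was at 1038 against 645 CPM, while Chil3 was lower at 264 against 517 CPM.

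The alveolar macrophage clusters differed among themselves. The main one had 624 control and 614 fibrosis cells, with Retnla at 4.84 and 155 CPM (141 to 169), no more than in B cell-like cells. A cluster with 18 control and 395 fibrosis cells had 717 CPM (685 to 749.7) in the fibrosis library. It was high in Mmp12, a macrophage elastase (3735 CPM), in Spp1 or osteopontin (5044 CPM) and in Arg1, the arginase of alternative activation (367 CPM). Its 5 highest cells held 40.2% of its Retnla and the top one had 388 UMIs. Another cluster, with 88 and 158 cells, had 1889.5 CPM in the fibrosis library, with 1402 UMIs in 1 cell and 92.8% in 5. Of alveolar macrophage-like cells called by markers, the 94 with Mmp12 at 1000 CPM or more had 319 CPM (276 to 368), and the other 571 had 168 CPM (154 to 183).

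Many Retnla transcripts were in cells that the markers left unclassified, 68.7% of the control and 49.1% of the fibrosis UMIs. By cluster, ciliated clusters held 30.5% of the fibrosis UMIs, club clusters 30.1% and AT2 clusters 25.2%. Within the ciliated clusters, 69 unclassified fibrosis cells with 5 or more club markers had 29888 UMIs. They had a median of 162 and a median total of 28793 UMIs, against 4292 for the library. Their Scgb1a1 was 339970.0 CPM and their ratio 40.4 Retnla per 1000 Scgb1a1, close to the club-like value. The 46 control cells of this kind had 406 UMIs and a ratio of 0.665. The clusters named interstitial macrophage-like held 47.1% of all control Retnla, ciliated clusters 26.4% and club clusters 8.88%.

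Genes of the response that Retnla belongs to were followed by lists. In club-like cells, 7 genes of the airway epithelial type 2 response list had at least 20 UMIs over both libraries. All 7 were higher by 2-fold or more in the fibrosis library, against 6.62% of all genes. Clca1 had 0 control and 1110 fibrosis UMIs, Chil4 0 and 197, Fcgbp 1 and 74, Muc5ac 3 and 55 and Agr2 5 and 69. These passed the limit only through the fibrosis library and could only come out higher, so the count is a description only. The 7 genes had a median log2 ratio of 3.57, and all genes 0.09. With the genes at 0 in the control library set to their lower bound, the median of the 7 was 3.78. Clca1 went from 0 to 1617 CPM, Fcgbp, a mucus glycoprotein gene, from 1.95 to 108 CPM and Muc5ac from 5.83 to 80.1 CPM. Tff2 had the smallest ratio, from 268 to 820.3 CPM. In AT2-like cells, 2 of 4 measured genes were that much higher, against 3.44% of all genes, among them Slc26a4 from 7.70 to 99.1 CPM. The other, Clca1, had 0 and 21 UMIs there and also passed only through the fibrosis library. The alternative activation list had 6 of 9 measured genes higher in alveolar macrophage-like cells and none lower, against 2.83% and 1.69% of all genes. The median log2 ratio was 1.40 against -0.06 for all genes. In these cells Arg1 had 2 control and 216 fibrosis UMIs, Ccl17 8 and 846, Ccl24 0 and 107 and Chil4 3 and 42. All of these reached 20 UMIs only through the fibrosis library, so this count too is a description only. Arg1 went from 0.703 to 56.7 CPM, the chemokine Ccl17 from 2.81 to 222 CPM and Chil3, a chitinase-like protein, from 14976 to 39440 CPM, while Mrc1 stood at 670.5 and 794 CPM. In interstitial macrophage-like cells 2 of 6 were higher and 1 lower, against 5.16% and 3.31% of all genes. The 2 were Tgm2, on 2 and 27 UMIs, and Chil3. In the background classes 2 of 3 were higher in B cell-like cells (3.89% of all genes) and 1 of 1 in T cell-like cells (3.54%). Chil3 was among them, at 116 and 367 CPM in B cell-like and 80.7 and 282 CPM in T cell-like cells.

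Receptors and signal carriers for IL-4 and IL-13 were few. None of 3 measured genes in club-like cells differed by 2-fold, nor did any of 6 in interstitial macrophage-like, of 8 in alveolar macrophage-like or of 8 in classical monocyte-like cells. Few genes of any kind did so (6.62%, 5.16%, 2.83% and 4.43% higher, 2.15%, 3.31%, 1.69% and 2.5% lower), so lists this short give no result at 0. In AT2-like cells 3 of 9 were higher by 2-fold or more (3.44% of all genes). Socs1, a feedback inhibitor, went from 1.15 to 2.85 CPM on 7 control and 29 fibrosis UMIs. Il2rg, also among the 3, had 17 and 61 UMIs. Both genes passed the limit on UMIs only through the fibrosis library, so this count is a description only. Il4ra went from 10.3 to 21.7 CPM in AT2-like cells, on 63 and 221 UMIs. Il13ra1 and Stat6 stood at 15.2 and 16.6 CPM and at 26.5 and 29.0 CPM there. The cytokine genes were scarce. Il13 had 2 control UMIs against 46 in fibrosis, of which 8 were in 2 of 34 group 2 innate lymphoid-like cells and 36 in 8 unclassified cells. Il5 had 0 and 8 UMIs and Il4 21 and 15. Il33 had 2457 and 6194 UMIs, with 78.8% and 79.7% of them in AT2-like cells, where it was at 317 and 485 CPM.

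The genes whose levels over the 34 class and library values were most like those of Retnla, among 10517 genes with at least 200 UMIs, were Clca1 (r = 0.70), AY036118 (0.70), mt-Nd4l (0.70), Gm10800 (0.69) and Scgb3a1 (0.68). These are Pearson correlations of log2(CPM + 1), given as a description, since classes of a library share depth and free RNA. AY036118 was at 601 to 729.6 CPM in club-like, AT2-like, interstitial macrophage-like, neutrophil-like and B cell-like cells of the fibrosis library and at 25.3 to 79.4 CPM in the control library. Clca1 and Scgb3a1 had their high values in club-like cells, with Scgb3a1 going from 6390.3 to 13783 CPM.

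Among the 17 compared classes, Retnlg was by far highest in neutrophil-like cells. Neutrophil-like cells had 30843 UMIs in 539 control cells, or 28194 CPM (27880 to 28510), and 3213 UMIs in 48 fibrosis cells, or 27532 CPM (26588 to 28501). The log2 ratio was -0.03 (-0.09 to 0.02), an interval that includes no difference. As UMIs per cell in place of CPM it was 0.23. Nearly every cell carried it, 99.8% of control and 97.9% of fibrosis cells, with medians of 49 and 67 UMIs and maxima of 317 and 167. Among 1000 UMIs, 527 of 539 control and 45 of 48 fibrosis cells had 5 or more. What differed was the number of cells, 6.51% of the control and 0.669% of the fibrosis library. The classified neutrophil-like cells held 65.0% of control and 43.7% of fibrosis Retnlg UMIs, and unclassified cells held 29.1% and 43.6%. By clusters, those that could not be named held 16.2% of the control UMIs (2017 CPM) and 23.8% of the fibrosis UMIs (440 CPM). Whether all Retnlg came from neutrophils was not tested. In neutrophil-like cells 9.33% of 3118 genes were higher and 9.2% lower by 2-fold or more.

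**Figure D5:**
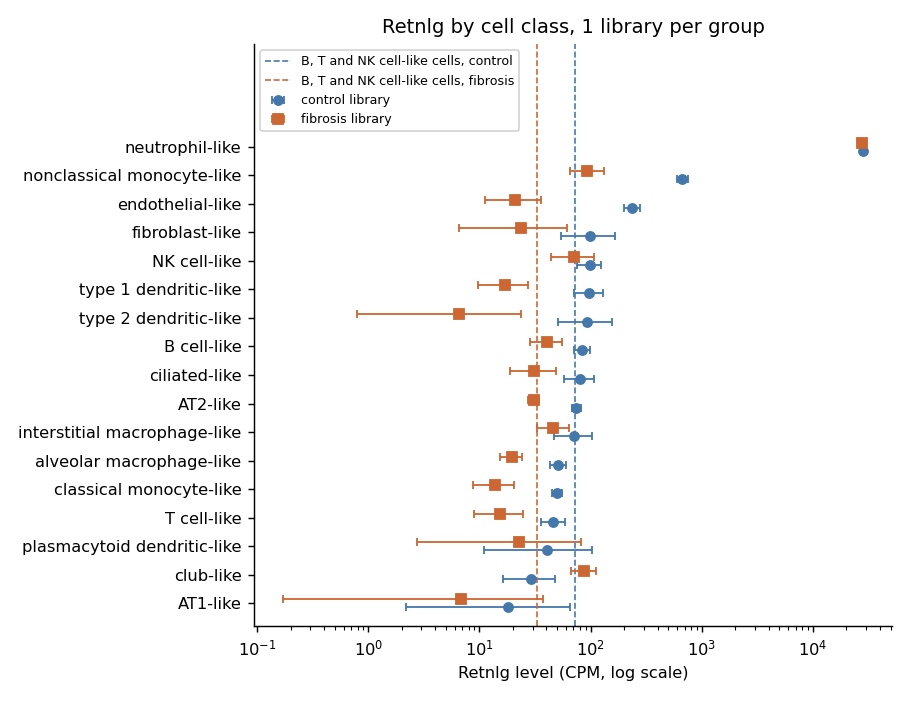
Retnlg level in CPM (log axis) in each of the 17 classes, control library in blue and fibrosis library in orange, with exact Poisson 95% intervals and dashed lines for B, T and NK cell-like cells summed (72.8 and 32.6 CPM). Neutrophil-like cells stand at 28194 and 27532 CPM, far to the right of every other class, and most other classes lie near the dashed lines.

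Neutrophil-like cells exceeded B cell-like cells 336-fold (286 to 396) among control cells and 683-fold (497 to 967) in fibrosis. The B cell-like level was 84.0 CPM in control and 40.3 CPM in fibrosis, and 2 of the 826 control cells held 56 of their 153 UMIs. In the control order neutrophil-like, nonclassical monocyte-like and endothelial-like cells each differed from the next class beyond counting error, and in fibrosis only neutrophil-like cells did. Outside neutrophil-like cells, 15 of 16 classes were lower in the fibrosis library, 11 of them by more than counting error. Nonclassical monocyte-like cells went from 669 to 93.7 CPM, but 7 control cells held 301 of their 330 UMIs and the rest had 62.0 CPM. Endothelial-like cells went from 236 to 20.9 CPM, with 70 of 139 control UMIs in 3 cells and 119 CPM in the rest. Club-like cells were the one class that was higher, from 29.2 to 87.4 CPM (15 and 60 UMIs), a log2 ratio of 1.58 (0.75 to 2.51). Retnla was at 21465 CPM in those cells, and whether reads from stretches shared by the 2 transcripts took part was not tested.

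S100a8 and S100a9, the calprotectin subunits and the most abundant neutrophil transcripts, served as tracers for free neutrophil RNA. Among control cells Retnlg stood at 86.0 per 1000 of their UMIs in neutrophil-like, 81.7 in T cell-like, 71.2 in NK cell-like, 63.5 in B cell-like and 58.2 in alveolar macrophage-like cells. The fibrosis values were 79.9 in neutrophil-like, 51.8 in T cell-like, 53.5 in NK cell-like and 27.01 in B cell-like cells. Club-like cells stood apart above these at 357 (261 to 482). Fibrosis classical monocyte-like cells at 11.7 (7.39 to 17.6) and nonclassical monocyte-like cells at 15.2 (10.5 to 21.3) lay below the neutrophil-like value. Control B cell-like (53.5 to 74.7) and AT2-like cells (54.4 to 65.9) lay below the control neutrophil-like value, and nonclassical monocyte-like cells above it (89.5 to 113). Intervals of T and NK cell-like cells included that value in each library. Retnlg and the tracers thus did not keep 1 ratio across classes. S100a9 (r = 0.94), S100a8 (0.91), Mrgpra2b (0.90), Il1f9 (0.89) and Gm5483 (0.87) had the levels most like those of Retnlg over the 34 values.

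Most other neutrophil genes differed by less than 2-fold within the class, as did most genes of any kind. Of the 14 genes in the granule and activation list, all were measured, and 1 was higher and 1 lower by 2-fold or more. Over all genes of the class 9.33% were higher and 9.2% lower, so these counts give no result about the list. Its median log2 ratio was 0.05 against 0.06 for all genes. Camp, an antimicrobial granule peptide, went from 537 to 1183 CPM, a log2 ratio of 1.14 (0.86 to 1.41). Il1b, the inflammatory cytokine, went from 2210.3 to 805 CPM, a log2 ratio of -1.46 (-1.77 to -1.16). S100a8 and S100a9 differed by 0.15 and -0.03. Retn, the resistin gene itself, had its highest class level in the same cells, at 76.8 CPM (84 of 189 UMIs) in control and 68.6 CPM (8 of 54 UMIs) in fibrosis neutrophil-like cells.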

How the data were processed

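The deposited matrices hold raw UMI counts per gene and cell from the 10x 3′ V2 chemistry, made with bcl2fastq and Cell Ranger 1.3 on build mm10, per the submitters' processing notes. The gene and barcode lists were used as deposited. The 2 members and all lists were chosen with earlier results of these data known.

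Cells above 10% mitochondrial UMIs were left out (254 and 228). A cell joined 1 of 25 classes when at least 3 markers and 33.3% of the class's list were detected. The best other lineage had to stay at or below 50% of that share and the next class of the lineage at or below 75%. These thresholds were set after the data had been seen. Of the marker symbols 2, and of the list symbols 1, were absent from the files. UMIs were summed per class and library with numpy 2.4.6 and scipy 1.17.1, with exact Poisson, conditional binomial and Clopper-Pearson 95% intervals. List counts add 0.5 UMIs to each sum. Genes in the text were the members in 17 classes, list genes with the largest and smallest ratios and at least 20 UMIs, and the 5 genes most like each member, with others named as chosen after seeing values. Alternatives used Leiden clusters (scanpy 1.11.5) made without the members. Scrublet marked only 14 of 8026 control cells (0.174%) and 166 of 6945 fibrosis cells (2.39%), so doublets stayed in, and removing the top 6% of scores from both libraries was an alternative. The ratio code was tested on simulated data. Positions are from GENCODE M21, in which 27645 of 27998 identifiers (98.7%) were found, and upstream windows from RefSeq, which matched both members.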

Additional observations from a re-analysis of the deposited data

How the results depend on the processing

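Over 8 ratios and 83 alternatives none reversed a called direction, 60 moved by less than the counting interval and 23 by more. On the log2 scale, Retnla in club-like cells (5.26) became 6.51 with Leiden clusters, 2.14 as the thinned share of cells and 6.88 without the 5 highest cells of each class, a setting chosen after seeing the data. In AT2-like cells (7.13) it was 6.80 with no mitochondrial filter and 3.59 as the thinned share. In alveolar macrophage-like cells (5.77) it was 7.13 with Leiden clusters. In interstitial macrophage-like cells (3.16) it was 0.50 with Leiden clusters, 2.78 with a stricter limit of 33.3% on other lineages and 5.07 as the thinned share; without the 5 highest cells the control class had no UMI and gave no value. Retnlg in neutrophil-like cells (-0.03) was 0.13 with Leiden clusters, 0.026 with the stricter limit, -0.13 with cells of at least 1915 UMIs, 0.23 as UMIs per cell and -0.15 without the 5 highest cells. The club-like to B cell-like ratio of Retnla (6.89) was 8.99 as UMIs per cell, 2.16 as the thinned share, 6.36 without the 5 highest cells and 7.15 with T cell-like cells as background. The neutrophil-like to B cell-like ratio of Retnlg (8.39) was 9.38 with Leiden clusters, 8.998 with the top scrublet scores removed, 4.195 as the thinned share, 9.34 without the 5 highest cells and 9.25 with T cell-like cells. The cause of each shift was not tested. No paired analysis was possible because each group has 1 library.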
